A study of Rattus norvegicus with 12 samples.

Results

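The heat shock proteins described here are those of the cytosol and of mitochondria: the small heat shock protein Hspb1, the cytosolic Hspa8, Hsp90ab1, Dnaja1 and Dnaja2, and the mitochondrial Hspa9, Hspd1 and Hspe1. Their members on the array were all probe sets that the array annotation assigns to exactly 1 of these 8 genes. This gave 20 probe sets of 7 genes among 8799 probe sets in all, 4 for Hspb1, 3 for Hspa9, 2 for Hspd1, 2 for Hspe1, 4 for Hsp90ab1, 2 for Dnaja1 and 3 for Dnaja2. Hspa8 was left without values, since its probe sets are annotated to a further gene as well, and 3 such shared probe sets (2 of Hspa8 with Haus8l2, 1 of Hspb1 with Asb2) were not used.

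The study measured total RNA of CC531, a colon carcinoma cell line of the rat, on 12 expression arrays. The cells had received 4.5 mM butyrate for 2, 6, 12, 16 or 24 h (5 arrays), 3 mM aspirin for the same 5 times (5 arrays), or no drug, with arrays at 2 and 24 h (2 arrays). Butyrate is a short-chain fatty acid made by gut bacteria that inhibits histone deacetylases, and aspirin inhibits the cyclooxygenases that make prostaglandins. No genetic change separates the groups, CC531 is 1 cell line in culture, and no solvent control is named in the labels. There was 1 array for each treatment and time, and nothing says whether the arrays came from separate cultures, so the p-values cover no more than the spread among these arrays, which may be partly technical.

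Heat shock proteins are chaperones: they bind unfolded proteins, keep them from clumping and help them to fold. Hspb1 (Hsp27) forms large oligomers that hold unfolding proteins and also acts on actin filaments. HSP70 proteins such as Hspa8 and the mitochondrial Hspa9 (mortalin) bind and release short unfolded stretches in an ATP-driven cycle that J-domain proteins such as Dnaja1 and Dnaja2 set in motion, and Hsp90ab1, the constitutive cytosolic HSP90, finishes the folding of kinases and hormone receptors. In the mitochondrial matrix, Hspd1 (Hsp60) forms the barrel in which imported proteins fold, and Hspe1 (Hsp10) is its lid. Many of these genes are switched on by heat shock factor 1, which binds inverted repeats of GAA and TTC in promoters.

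Promoter windows were at hand for 7 of the 8 genes (RefSeq, assembly GRCr8, 300 bases each, 250 before to 50 after the start of the gene), and Dnaja2 had no entry. The windows were searched for GAANNTTC and TTCNNGAA, the short inverted repeats that such binding sites are built from. Each motif reads the same on both strands, and where matches overlap, each was counted. At least 1 of them was found in 6 of the 7 windows, against 15.9% of all 33469 rat promoters. Hsp90ab1 had none in its window. Matches of both motifs that overlap by 3 bases, and so form a longer run, stood in 4 windows (Hspa8, Hspd1, Hspe1 and Dnaja1), against 0.798% of all promoters, a search added after the sequences had been seen. Hspb1 had 2 separate GAANNTTC matches instead. A match describes the letters of the window and is not a measured binding site.

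Below are the windows of 4 genes, because they show how the repeats are arranged in the gene called higher with butyrate (Hspb1), in the pair whose values declined over the hours of butyrate (Hspd1 and Hspe1) and in a gene with 1 of 2 probe sets called lower (Dnaja1), with every motif match in capitals and the rest in lower case, 5′ to 3′ on the gene's own strand. They lie at chr12:26432252-26432551 (minus strand, Hspb1), chr9:64083988-64084287 (minus strand, Hspd1), chr9:64084077-64084376 (plus strand, Hspe1) and chr5:60638154-60638453 (plus strand, Dnaja1).
Hspb1: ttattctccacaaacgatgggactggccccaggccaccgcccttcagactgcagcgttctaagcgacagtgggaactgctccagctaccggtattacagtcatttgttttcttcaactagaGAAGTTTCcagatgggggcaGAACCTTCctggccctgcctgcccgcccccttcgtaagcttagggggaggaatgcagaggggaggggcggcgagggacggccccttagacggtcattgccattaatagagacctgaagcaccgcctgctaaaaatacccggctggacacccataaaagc
Hspd1: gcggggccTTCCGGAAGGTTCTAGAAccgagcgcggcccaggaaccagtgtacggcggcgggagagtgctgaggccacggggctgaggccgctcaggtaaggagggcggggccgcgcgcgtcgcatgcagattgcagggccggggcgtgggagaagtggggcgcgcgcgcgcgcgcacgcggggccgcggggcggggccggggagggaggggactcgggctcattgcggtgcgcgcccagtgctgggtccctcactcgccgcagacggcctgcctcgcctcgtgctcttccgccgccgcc
Hspe1: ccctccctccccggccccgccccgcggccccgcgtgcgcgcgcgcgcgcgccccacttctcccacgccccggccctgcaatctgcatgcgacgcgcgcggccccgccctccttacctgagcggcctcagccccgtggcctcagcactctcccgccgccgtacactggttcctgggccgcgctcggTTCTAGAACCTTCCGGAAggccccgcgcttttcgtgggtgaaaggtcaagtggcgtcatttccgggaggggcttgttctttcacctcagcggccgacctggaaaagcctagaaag
Dnaja1: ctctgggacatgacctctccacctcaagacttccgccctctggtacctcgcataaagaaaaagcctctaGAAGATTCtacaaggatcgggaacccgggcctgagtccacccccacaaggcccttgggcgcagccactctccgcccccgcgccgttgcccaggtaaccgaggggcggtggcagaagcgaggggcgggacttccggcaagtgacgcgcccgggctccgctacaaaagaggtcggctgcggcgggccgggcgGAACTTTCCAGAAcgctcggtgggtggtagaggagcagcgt

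Hspd1 and Hspe1 lie head to head on chromosome 9. Their start sites are 290 bases apart on opposite strands and their windows share 211 bases, so the long repeat printed for Hspd1 at its far end, beginning 242 bases before its start, is the same stretch as that of Hspe1, beginning 65 bases before its start, read from the other strand. In Dnaja1 the long repeat begins at base 10 of the transcribed part.

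All 20 probe sets passed the brightness filter, and the lowest value on any array was 108, above the floor of 91 to which low values were raised. Values are deposited array intensities on a linear scale, and changes are differences of log2 intensities, tested with limma over all 6118 tested probe sets with Benjamini-Hochberg adjustment. A probe set is called where its adjusted p is under 0.05. The number of arrays limits the precision. In RNA of whole cultures, fewer cells that express a gene and less RNA per cell cannot be told apart.

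The cultures carried the markers of gut epithelium, with 12 of 14 probe sets above the floor on all 12 arrays. Their summed intensity was 83207 to 104562 with butyrate, 97542 to 112570.4 with aspirin and 95079 to 118138 in untreated cells. The sums hide opposite changes. Of 13 tested, 2 were called higher and 2 lower with butyrate against untreated cells, and 3 higher and 3 lower against aspirin. Krt19 on X81449cds_at read 5422 to 8106 with butyrate, against 2693 and 2802 in untreated cells. Krt18 on X81448cds_at read 10787 to 15180 with butyrate, against 21546 and 21284 in untreated cells. Of 10 probe sets of blood and immune markers, 2 (both Cd14) were above the floor on every array and 4 (of Ptprc, Cd8a and Lyz2) were at it on every array. This list summed to 2038 to 3339 with butyrate, 3719 to 10591 with aspirin and 4287 to 6479.8 in untreated cells. Of its 6 tested probe sets, 1 was called lower with butyrate against untreated cells and 2 against aspirin, with 0 higher. Cd14 on AF087943_s_at read 313 to 1356 with butyrate, 1731 to 5369 with aspirin and 1964 and 2778 in untreated cells. Fibroblast markers had 6 of 20 probe sets above the floor on all arrays and overlapping sums (5442 to 7051 with butyrate, 5975 to 6969 with aspirin, 5902 to 7368 untreated). Within that list, Col1a1 on M27207mRNA_s_at read 235 to 1615 with butyrate, 58.4 to 123 with aspirin and 114 to 159 in untreated cells. Its change with butyrate against untreated cells was 2.32 ± 0.54 (limma, adjusted p = 0.0165), while its other 3 probe sets were not called (−0.36 to 0.15). With butyrate 2 slopes, of Col1a1 and Thy1, were called rising, and the Thy1 probe sets were at the floor on 9 and 7 of 12 arrays. Against aspirin, 2 of the 12 tested fibroblast probe sets were called higher with butyrate and 1 lower. Vim, the brightest of the list, read 2286 to 3433 with butyrate, 4051 to 4349 with aspirin and 3504 and 4129 in untreated cells. Endothelial markers had 0 of 4 above the floor throughout. The ratio of 3′ to 5′ probe sets of actin, a sign of RNA quality, was 0.962 to 1.06 with butyrate, 1.03 to 1.55 with aspirin (highest at 2 h) and 0.998 to 1.03 in untreated cells. For GAPDH it was 1.05 to 1.17 with butyrate, 1.10 to 1.24 with aspirin and 1.19 to 1.31 in untreated cells, so butyrate and untreated arrays did not overlap. The part of these differences in the results below was not tested. The untreated arrays at 2 and 24 h differed from each other at least 2-fold at 16.5% of tested probe sets, and every comparison with untreated cells rests on them.

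With butyrate, Hspb1 rose and the other members that passed the test fell. Of the 20 probe sets, 7 were called against untreated cells, 3 higher (all Hspb1) and 4 lower (2 of Hspa9, 1 of Dnaja1, 1 of Dnaja2). Among all tested probe sets 11.7% were called, 7.78% higher and 3.92% lower. On 14 of the 20 probe sets all 5 butyrate arrays lay below both untreated arrays, which held for 13.2% of all tested probe sets. On 3 of the 20, all of them Hspb1, every butyrate array lay above both untreated arrays (14.7% of all tested). The median change of the 20 was −0.50 on the log2 scale, beside 0.00 over all tested probe sets. Without the untreated 2 h array 0 of the 20 were called, and without the butyrate 2 h array 13 were. Over all tested probe sets 1187 were called without the butyrate 2 h array, beside 716 in the main fit. The fit without the untreated 2 h array leaves 1 untreated array, so its lost calls are not read as a result about the members. In it 16 of the 20 changes were below 0, as in the main fit. Untreated arrays exist only at 2 and 24 h. With the arrays of those hours alone and hour as a block 0 of the 20 were called. In that setting 0 of all tested probe sets were called too, so it does not set the members apart.

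**Figure D1:**
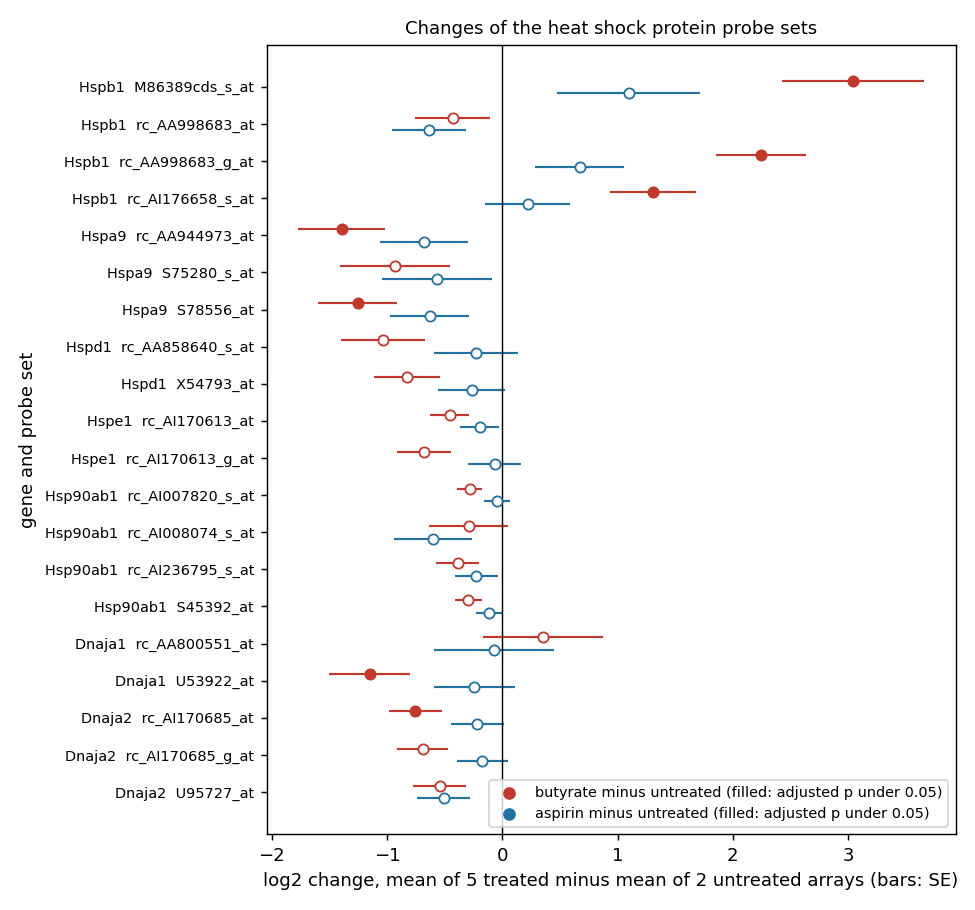
Log2 change of each of the 20 probe sets (down the page) with butyrate (red, above) and aspirin (blue, below) relative to untreated cells, mean of 5 arrays minus mean of 2 arrays, with bars for the standard error and filled points where the adjusted p was under 0.05. With butyrate 7 points are filled, the 3 to the right belonging to Hspb1, and with aspirin 0 are filled.

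Hspb1, the small heat shock protein, was the member that rose. Probe set rc_AA998683_g_at read 2070.1, 3640.2, 4376, 4432 and 6496 after 2, 6, 12, 16 and 24 h of butyrate, against 614 and 1127 in untreated cells at 2 and 24 h. Every butyrate array was above both untreated arrays, and the values climbed with each later time. The change was 2.24 ± 0.39 (log2, SE), or 4.74-fold (limma, adjusted p = 0.004). At 24 h, where a same-hour untreated array exists, the butyrate value was 5.77 times the untreated one.

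The M86389cds_s_at probe set of Hspb1 read 1389.8, 3338, 2701, 3075 and 5436 over the 5 butyrate times, against 180.5 and 692 in untreated cells. Here too the groups did not overlap, although the untreated arrays were themselves 1.94 log2 units apart. The change was 3.04 ± 0.62, or 8.24-fold (limma, adjusted p = 0.00903), and at 24 h the ratio to the same-hour untreated array was 7.86. Without the untreated 2 h array the calls of both these probe sets were lost (adjusted p = 0.137 for M86389cds_s_at and 0.0653 for rc_AA998683_g_at).

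On rc_AI176658_s_at, Hspb1 read 1664, 2733, 3326, 3559.5 and 5111 with butyrate, against 977 and 1583 in untreated cells. The lowest butyrate array, at 2 h, was only just above the higher untreated array, and the later 4 were well above it. The change was 1.31 ± 0.37, or 2.47-fold (limma, adjusted p = 0.0388), and this call was lost without either untreated array, without the butyrate 6, 12, 16 or 24 h array and without the aspirin 12 or 16 h array, which only enters the shared spread (adjusted p up to 0.276).

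The remaining Hspb1 probe set, rc_AA998683_at, did not follow the others. It read 808, 1295, 1201, 808 and 1115 with butyrate, against 1412 and 1352 in untreated cells, and all butyrate arrays lay below the untreated ones. Its change was −0.43 ± 0.32 (limma, adjusted p = 0.42). Over the 12 arrays its log2 values correlated with those of the other Hspb1 probe sets at r = −0.12, 0.03 and 0.14, while those 3 correlated among themselves at 0.92 to 0.97. These r values describe 12 arrays that share treatments and times.

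With aspirin, Hspb1 was not called on any probe set. On rc_AA998683_g_at it read 1062, 1092, 1359, 1201 and 2144 after 2, 6, 12, 16 and 24 h of aspirin, against 614 and 1127 in untreated cells, so the groups overlapped. The 24 h aspirin array was the highest and was 1.90 times the same-hour untreated array. The changes of the 4 probe sets were 1.10 (adjusted p = 0.542), 0.67 (0.563), 0.22 (0.892) and −0.64 (0.503), all from limma. On this probe set the mean over the times was 4203 ± 1597 with butyrate and 1372 ± 447 with aspirin (SD, n = 5 each), beside 870.1 ± 363 in untreated cells (SD, n = 2), an SD that includes the spread over times. Butyrate cells stood above aspirin cells by the test given further on, and aspirin and untreated cells did not differ beyond their spread.

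**Figure D2:**
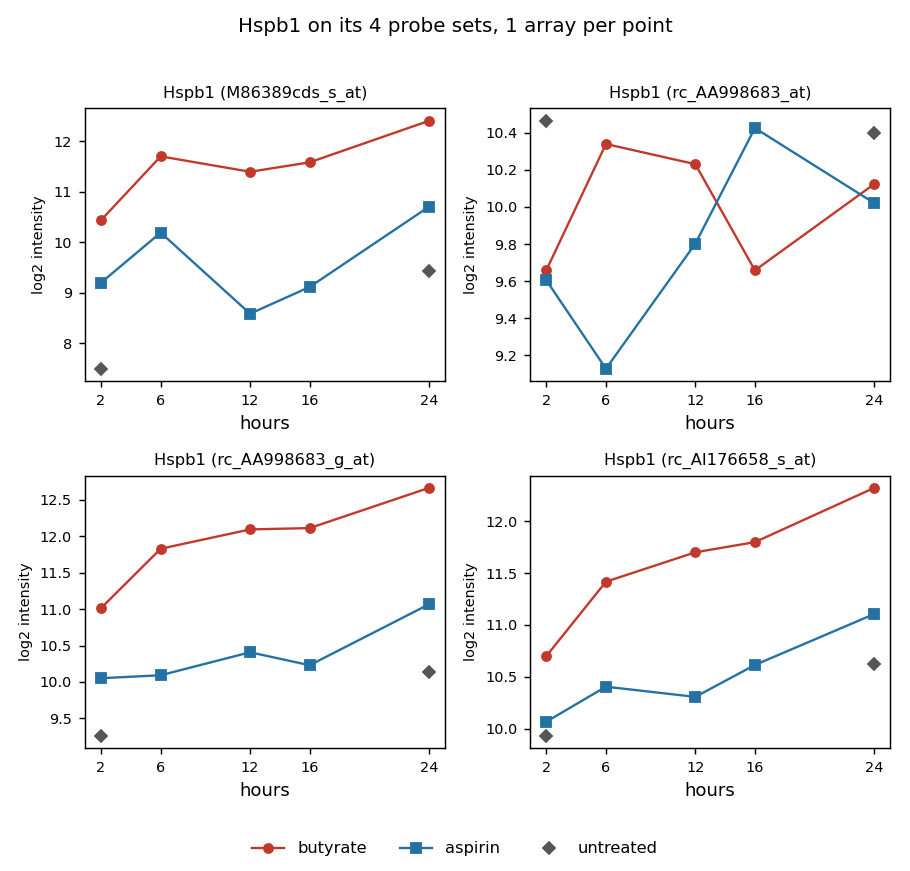
Log2 intensity of the 4 Hspb1 probe sets (one panel each) against hours, for butyrate (red), aspirin (blue) and untreated cells (grey), 1 array per point. In 3 panels the butyrate line runs above the others at every time, reaching 6496 on rc_AA998683_g_at at 24 h, and in the panel of rc_AA998683_at all butyrate points lie below the untreated ones.

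Among the mitochondrial chaperones, Hspa9 was called lower with butyrate. Hspa9, the matrix HSP70 that also pulls proteins through the import channel, read 5888, 5973, 4391, 2899.8 and 2106 on S78556_at with butyrate, against 10437 and 8459.6 in untreated cells. All 5 butyrate arrays were lower than both untreated arrays, and the 24 h array was the lowest. The change was −1.26 ± 0.34, to 0.419 of the untreated level (limma, adjusted p = 0.0318). At 24 h the butyrate value was 0.249 of the same-hour untreated value.

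On the dimmer rc_AA944973_at, Hspa9 read 232, 255, 177, 122 and 108 with butyrate, against 582 and 339.7 in untreated cells. The groups did not overlap, and the change was −1.39 ± 0.38 (limma, adjusted p = 0.0324). On S75280_s_at it read 5792, 3119, 1918, 1607 and 1465 with butyrate, against 5669.5 and 3711 in untreated cells. The 2 h butyrate array there was above both untreated arrays and the later 4 below them, and the change of −0.93 ± 0.48 did not pass the test (limma, adjusted p = 0.219). The calls of S78556_at and rc_AA944973_at were lost without the untreated 2 h array or without the butyrate 12 or 16 h array, that of S78556_at also without the untreated 24 h array and that of rc_AA944973_at without the butyrate 24 h array (adjusted p up to 0.201 for S78556_at and 0.218 for rc_AA944973_at). With time as a factor rc_AA944973_at was no longer called (−1.46, limma, adjusted p = 0.0785), while S78556_at was (−1.35, 0.0382). Without the filter both calls were lost, and with the floor doubled that of S78556_at was lost.

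Hspd1, the chaperonin barrel, was lowest late in the butyrate series. On X54793_at it read 19769, 17839, 13846, 9471 and 7476 after 2, 6, 12, 16 and 24 h of butyrate, against 22931 and 22542 in untreated cells. On rc_AA858640_s_at it read 13784, 12399, 5229.6, 5638 and 4488, against 15756 and 14706 in untreated cells. Both probe sets were below both untreated arrays at every time, by little at 2 h and by most at 24 h. The means over all times differed by −0.83 ± 0.29 (limma, adjusted p = 0.0785) and −1.04 ± 0.36 (0.079), neither of which passed the threshold. At 24 h alone, Hspd1 stood at 0.332 and 0.305 of the same-hour untreated level on X54793_at and rc_AA858640_s_at, each from 1 array a side.

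Hspe1, the lid of the barrel, moved less. On rc_AI170613_g_at it read 13506, 12251, 8894, 8500.4 and 7019 with butyrate, against 13793 and 17625 in untreated cells. On rc_AI170613_at it read 10046, 10039.8, 8044, 8329.6 and 7159.6 with butyrate, against 11131 and 12638 in untreated cells. Neither probe set had a butyrate array as high as an untreated one. The changes of −0.68 ± 0.23 (limma, adjusted p = 0.0718) and −0.46 ± 0.17 (0.0957) did not pass the threshold. At 24 h the ratios to the same-hour untreated array were 0.398 and 0.566.

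None of the 7 mitochondrial probe sets was called with aspirin. Hspd1 on X54793_at read 18949, 18873, 20583, 19666 and 16761 with aspirin, against 22931 and 22542 in untreated cells. Every aspirin array was below both untreated arrays, by a mean of −0.26 ± 0.29 (limma, adjusted p = 0.819). On rc_AA858640_s_at of Hspd1 the aspirin values were 11869, 13582, 13592, 14689 and 11549.5, again all below the untreated 15756 and 14706 (−0.23 ± 0.36, limma, adjusted p = 0.881). Hspa9 on S78556_at read 6934, 5272, 7469, 5914 and 5115 with aspirin, also all below the untreated arrays given above, a change of −0.63 ± 0.34 (limma, adjusted p = 0.525). These were the 3 probe sets of the 20 on which all aspirin arrays lay below both untreated ones, a pattern seen on 7.78% of all tested probe sets.

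The lid Hspe1 had no called change with aspirin. On rc_AI170613_g_at it read 15850.1, 17125, 15389, 15360.1 and 11487 with aspirin, against 13793 and 17625 in untreated cells, and only the 24 h array lay below them. On rc_AI170613_at it read 11119, 11408, 10924, 10694 and 8091 with aspirin, against 11131 and 12638 in untreated cells, with 4 aspirin arrays below both of these and the 6 h array between them. The changes were −0.06 ± 0.23 (limma, adjusted p = 0.975) and −0.19 ± 0.17 (0.746). The dimmer Hspa9 probe set rc_AA944973_at read 252, 275, 234, 354 and 288 with aspirin, and S75280_s_at read 3748, 1612, 3358, 3260.5 and 4321, both overlapping the untreated arrays.

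**Figure D3:**
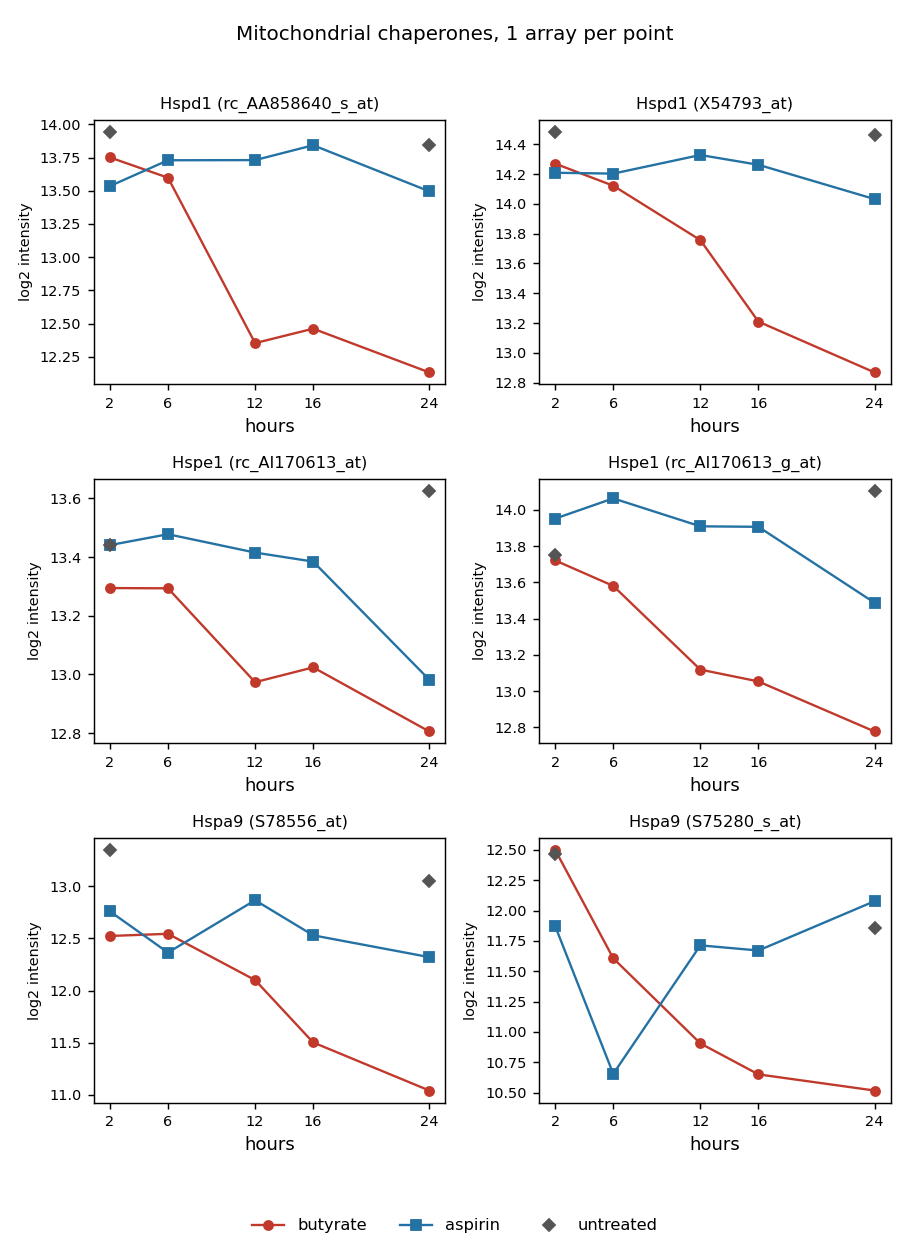
Log2 intensity of the mitochondrial chaperone probe sets shown against hours for butyrate (red), aspirin (blue) and untreated cells (grey), 1 array per point. The butyrate lines descend with time, on Hspd1 X54793_at to 7476 at 24 h, against 16761 with aspirin and 22542 in untreated cells at that hour.

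In the cytosol, both J-domain proteins had a probe set that was called lower with butyrate. Dnaja1, a farnesylated J-domain partner of cytosolic HSP70, read 5298, 8958, 3474, 4012 and 4935 on U53922_at with butyrate, against 10079.5 and 12434 in untreated cells. The butyrate arrays were all below the untreated ones, with 12 h the lowest. The change was −1.15 ± 0.35, to 0.451 of the untreated level (limma, adjusted p = 0.0493).

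Another Dnaja1 probe set, rc_AA800551_at, read 1391, 1686, 1165, 1244 and 1162 with butyrate, against 1509 and 702 in untreated cells. The groups overlapped and the untreated arrays alone were 1.10 log2 units apart, with the later one lower. Its change of 0.35 ± 0.52 did not pass the test (limma, adjusted p = 0.709), and the probe sets of Dnaja1 correlated at r = 0.11 over the 12 arrays. They thus gave no common direction.

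Dnaja2, a close relative of Dnaja1, read 6570.3, 6802, 4217, 5848 and 4899.9 on rc_AI170685_at with butyrate, against 10188 and 8692 in untreated cells. All butyrate arrays lay below the untreated ones, and the change was −0.75 ± 0.23, to 0.593 of the untreated level (limma, adjusted p = 0.0495). Its 2 further probe sets lay below both untreated arrays as well but were not called. On rc_AI170685_g_at Dnaja2 changed by −0.69 ± 0.22 (limma, adjusted p = 0.0584) and on U95727_at by −0.54 ± 0.23 (0.134). The calls of Dnaja1 and Dnaja2 stood close to the threshold and were lost without either untreated array, without the butyrate 12, 16 or 24 h array and without 3 of the aspirin arrays (2, 12 or 16 h for Dnaja1, 6, 16 or 24 h for Dnaja2) (adjusted p up to 0.27 for Dnaja1 and 0.254 for Dnaja2). With time as a factor that of Dnaja2 was lost too (−0.88, limma, adjusted p = 0.0922), and that of Dnaja1 was not (−1.31, 0.0229). Both calls were also lost with the floor doubled, without the filter, with quantile normalization and without the variance trend.

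Hsp90ab1, the constitutive HSP90, was not called on any of its 4 probe sets with butyrate. On S45392_at it read 24407, 22026, 20956, 21055 and 18699 with butyrate, against 26119 and 26203 in untreated cells. On rc_AI007820_s_at it read 23324, 21145, 19056, 21191 and 19077 with butyrate, against 25919 and 24495 in untreated cells. Here and on rc_AI236795_s_at all butyrate arrays lay below the untreated ones, by small amounts. The 4 changes were −0.28 to −0.39 (limma, adjusted p = 0.111 to 0.627), and after quantile normalization that of rc_AI007820_s_at was −0.07 and that of S45392_at −0.08.

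Both J-domain genes and Hsp90ab1 overlapped the untreated arrays with aspirin on all 9 of their probe sets. Dnaja1 on U53922_at read 8874, 16391, 10341, 8051 and 6241 with aspirin, highest at 6 h and lowest at 24 h, against 10079.5 and 12434 in untreated cells. Its change was −0.24 ± 0.35 (limma, adjusted p = 0.87). Dnaja2 on rc_AI170685_at read 6068, 7605, 11215, 9127 and 7412 with aspirin, highest at 12 h, a change of −0.22 ± 0.23 against untreated cells (limma, adjusted p = 0.814). The Dnaja2 probe set U95727_at was the only member at an unadjusted p under 0.05 with aspirin, at −0.51 ± 0.23 (limma, adjusted p = 0.443).

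**Figure D4:**
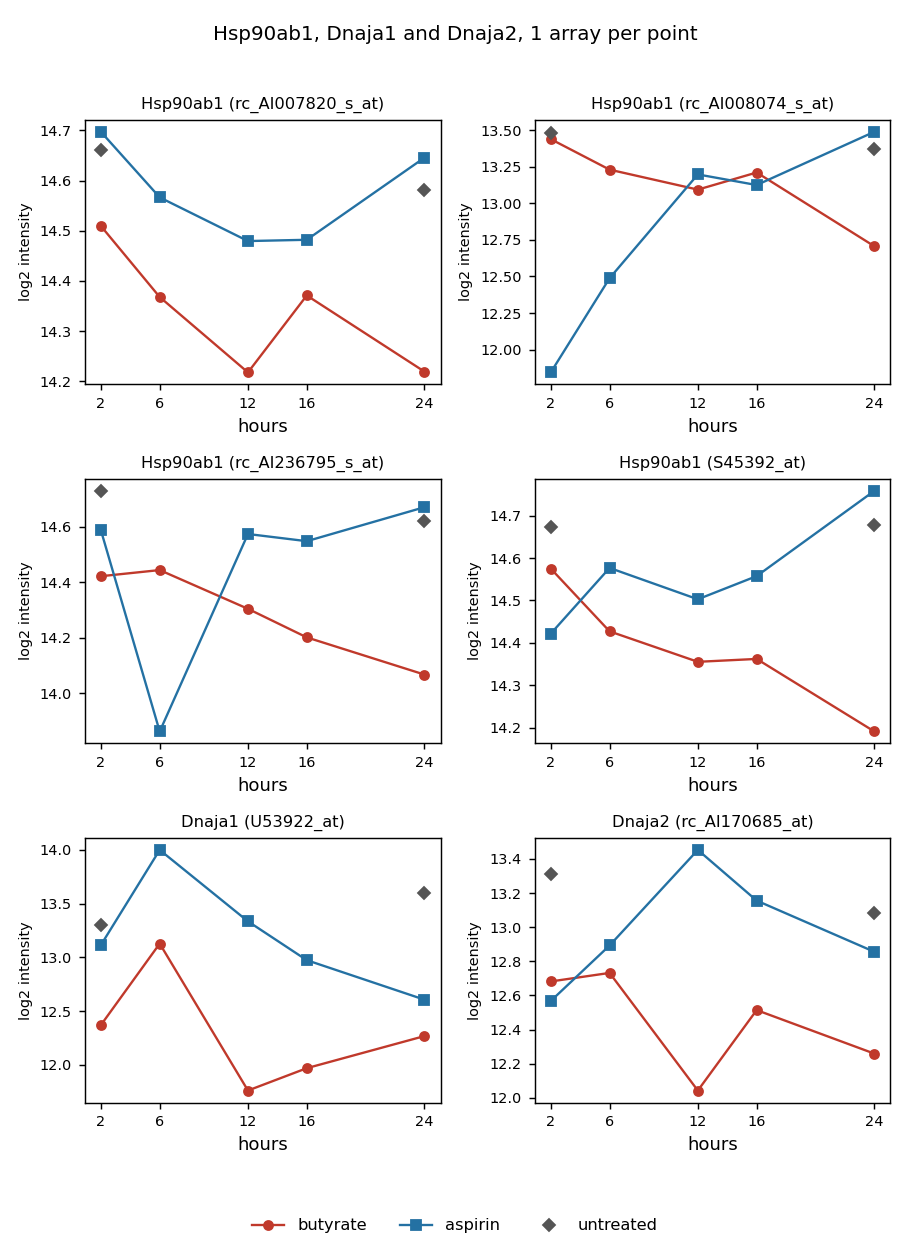
Log2 intensity of the 4 Hsp90ab1 probe sets, Dnaja1 U53922_at and Dnaja2 rc_AI170685_at against hours for butyrate (red), aspirin (blue) and untreated cells (grey), 1 array per point, each panel with its own range. On Dnaja1 U53922_at the butyrate line, at 3474 to 8958, runs below the aspirin line at every time, and on Hsp90ab1 rc_AI008074_s_at the aspirin line starts at 3677 and ends at 11496.

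In all, aspirin called 0 of the 20 probe sets against untreated cells (limma), with 1 at an unadjusted p under 0.05, and 0.147% of all tested probe sets were called (0.0817% higher, 0.0654% lower). On 0 of the 20 did all aspirin arrays lie above both untreated ones, against 3.81% of all tested. Changes lay between −0.68 and 1.10, with a median of −0.22 beside −0.04 over all tested probe sets. A change below 0 was read on 16 of the 20 probe sets with butyrate and on 17 with aspirin, against 49.5% and 56.7% of all tested. With each array centred on its median these counts were 16 with butyrate and 13 with aspirin. Centring moved the median over all tested probe sets to −0.19 and 0.08, so the shares of all tested given here belong only to the uncentred counts. The comparisons of both drugs share the untreated arrays, so a common direction in them is no separate evidence.

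Over the hours of butyrate, slopes were called rising for Hspb1 and falling for Hspd1, Hspe1 and Hspa9, not on every probe set of each gene. Slopes were fitted as log2 change per unit of log2 hours. With butyrate 7 of the 20 slopes were called, 2 rising (Hspb1) and 5 falling (2 of Hspd1, 1 of Hspe1, 2 of Hspa9), against 8.99% of all tested probe sets (4.79% rising, 4.2% falling). Hspb1 climbed by 0.42 ± 0.08 on rc_AA998683_g_at (limma, adjusted p = 0.0214), a fitted 2.82-fold between 2 and 24 h, and by 0.41 ± 0.07 on rc_AI176658_s_at (0.0111), a fitted 2.80-fold. On these probe sets untreated cells were also higher at 24 h than at 2 h, by 0.88 and 0.70 log2 units, from 1 array per hour. With aspirin the slopes were 0.22 and 0.24, not called (limma, adjusted p = 0.188 and 0.105). The slopes with butyrate minus those with aspirin were 0.20 and 0.18, also not called (limma, adjusted p = 0.429 and 0.379). The part of culture time in the climb was not tested.

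The falling slopes that were called were all of mitochondrial genes, while 16 of the 20 slopes were below 0, against 43.4% of all tested probe sets. The slope of Hspd1 was −0.50 ± 0.08 on rc_AA858640_s_at (limma, adjusted p = 0.0124) and −0.39 ± 0.07 on X54793_at (0.017), which brings the fitted 24 h level to 0.29 and 0.383 of the fitted 2 h level. Hspe1 fell by 0.27 ± 0.06 on rc_AI170613_g_at (limma, adjusted p = 0.0278). For Hspa9 the slopes were −0.58 ± 0.14 on S75280_s_at (limma, adjusted p = 0.0402) and −0.40 ± 0.10 on S78556_at (0.0496). No slope of Hsp90ab1, Dnaja1 or Dnaja2 was called with butyrate, although all of them were below 0 as well (−0.16 to −0.06). The slope calls depended on which arrays were used: without the butyrate 24 h array 0 of the 20 were called, without the 2 h array 1 and without the 16 h array 3. Over all tested probe sets 275, 75 and 253 slopes were called without those arrays, beside 550 in the main fit. The Hspb1 slopes were lost without the butyrate 2 or 24 h array (adjusted p up to 0.36 on rc_AA998683_g_at and 0.2 on rc_AI176658_s_at). For Hspd1 this held without the butyrate 2 or 24 h array on rc_AA858640_s_at (up to 0.0687) and without the 16 or 24 h array on X54793_at (up to 0.0889). The slope of Hspa9 S78556_at was lost without any 1 of the 10 arrays (adjusted p up to 0.225), that of S75280_s_at without any butyrate array or the aspirin 12 or 16 h array (up to 0.439), and that of Hspe1 without the butyrate 2, 16 or 24 h array (up to 0.128).

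Counted array by array, values 2-fold below the untreated mean were found mostly from 12 h of butyrate on. Against the mean of the untreated arrays, 2, 3, 3, 3 and 3 of the 20 probe sets were at least 2-fold higher after 2, 6, 12, 16 and 24 h of butyrate, all of them Hspb1. Over all tested probe sets the shares at those times were 6.57, 11.4, 14.5, 14.3 and 15.8%. At least 2-fold lower were 1, 0, 7, 6 and 7 of the 20, against 4.69, 5.66, 7.49, 9.27 and 9.95% of all tested. The genes at least 2-fold lower were Dnaja1 at 2 h, Hspa9, Hspd1, Dnaja1 and Dnaja2 at 12 h, Hspa9, Hspd1 and Dnaja1 at 16 h, and Hspa9, Hspd1, Hspe1 and Dnaja1 at 24 h. With aspirin the counts were 0, 1, 0, 0 and 2 higher (3.25, 2.6, 3.25, 5 and 7.98% of all tested) and 1, 2, 0, 1 and 1 lower (7.16, 7.49, 4.82, 3.92 and 6.02%). These are counts on 1 array each, with no test.

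**Figure D5:**
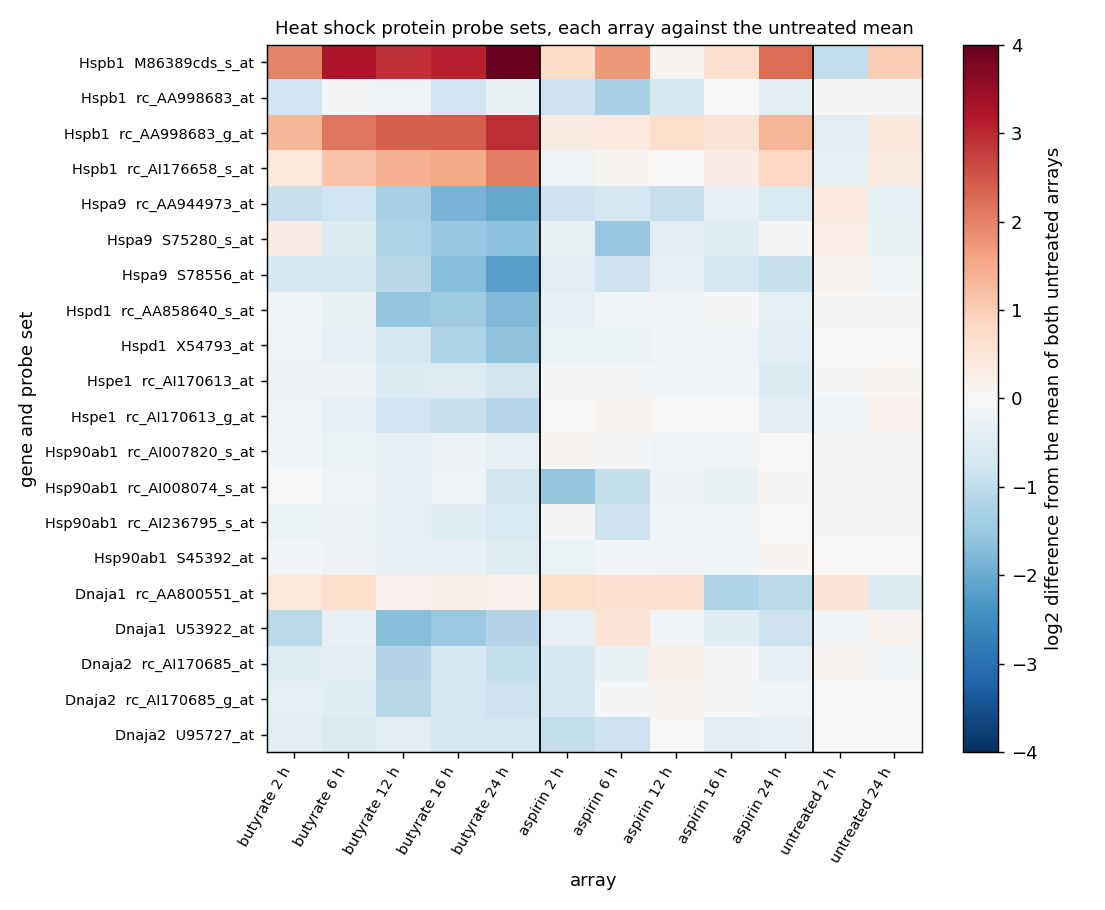
Log2 difference of each array (columns, butyrate then aspirin then untreated, by hour) from the mean of both untreated arrays for the 20 probe sets (rows), red for higher and blue for lower. The red block is Hspb1 with butyrate on 3 of its 4 probe sets, and the blue block from 12 h on covers Hspa9, Hspd1 and Dnaja1 U53922_at.

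With aspirin 1 of the 20 slopes was called, against 1.65% of all tested probe sets (1.32% rising, 0.327% falling). It was Hsp90ab1 on rc_AI008074_s_at. This probe set read 11104, 9609, 8742, 9480.0 and 6685 after 2, 6, 12, 16 and 24 h of butyrate. With aspirin it read 3677, 5746, 9394, 8933 and 11496, against 11452 and 10619 in untreated cells. The aspirin arrays began far below the untreated level and reached it at 24 h, a slope of 0.46 ± 0.05 (limma, adjusted p = 0.0154). The slope with butyrate minus that with aspirin was −0.62 ± 0.07 (limma, adjusted p = 0.0154), the only called slope difference among the 20, against 1.73% of all tested (0.686% higher, 1.05% lower). That call was lost without the butyrate 2 h array or the aspirin 2, 16 or 24 h array (adjusted p up to 0.0714).

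That course was not shared by the other Hsp90ab1 probe sets, whose slopes with aspirin were −0.03 to 0.07 with none called. Their 2 h aspirin arrays read 26561, 24616 and 21943, and the probe sets of this gene correlated with rc_AI008074_s_at at r = −0.09 to 0.45 over the 12 arrays. The 2 h aspirin array also had the highest 3′ to 5′ ratio of actin, 1.55, and its part in this slope was not tested. Without the 2 h or the 24 h aspirin array the slope was no longer called (adjusted p up to 0.0775).

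Set side by side at the same hours, butyrate and aspirin differed on 7 of the 20 probe sets, 3 higher with butyrate and 4 lower, against 25.2% of all tested probe sets (15.6% higher, 9.61% lower). The comparison set the 10 treated arrays against each other by hour, as a block, and the doses of 4.5 mM butyrate and 3 mM aspirin differ. Hspb1 was higher with butyrate than with aspirin by 1.95 ± 0.26 on M86389cds_s_at (limma, adjusted p = 0.00822), 1.57 ± 0.15 on rc_AA998683_g_at (0.00545) and 1.09 ± 0.13 on rc_AI176658_s_at (0.00737). It was higher at 5 of 5 times on all 3, and the last 2 were called whichever array was left out. The difference on rc_AA998683_g_at was smallest at 2 h, at 0.96, and 1.60 to 1.88 at the later times. On M86389cds_s_at the call was lost without the butyrate or the aspirin 16 h array (adjusted p up to 0.0511).

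Of the probe sets called lower with butyrate than with aspirin, that of Dnaja1 differed most, by −0.91 ± 0.17 on U53922_at (limma, adjusted p = 0.0182). Hspe1 differed by −0.61 ± 0.11 on rc_AI170613_g_at (limma, adjusted p = 0.0144) and by −0.26 ± 0.07 on rc_AI170613_at (0.0448). All 3 were lower with butyrate at each of the 5 times. The other Dnaja1 probe set, rc_AA800551_at, was not called, at 0.42 ± 0.34 (limma, adjusted p = 0.399), with 1.52 at 16 h and 1.21 at 24 h. Leaving out 1 array ended the call of Dnaja1 in 5 of 10 cases (butyrate 6 or 16 h, aspirin 6, 12 or 16 h). It ended that of each Hspe1 probe set in 8 of 10, all but the 2 h arrays (adjusted p up to 0.0763 for Dnaja1, and 0.0656 and 0.132 for Hspe1). The call of Hspe1 rc_AI170613_at was lost in 6 of 7 other processing settings too, with values of −0.57 (median centring) to −0.13 (quantile normalization) and adjusted p up to 0.249. Hsp90ab1 on rc_AI007820_s_at was called lower by −0.24 ± 0.06 (limma, adjusted p = 0.0402), but the difference was 0.01 (adjusted p = 0.956) after quantile normalization of the arrays, so its direction depends on the scaling. Its call was also lost without any 1 of the 10 arrays (adjusted p up to 0.124). Pooled over the hours, the arrays of the drugs overlapped on all 20 probe sets, while among all tested probe sets 10.3% lay wholly higher with butyrate and 5.3% wholly lower.

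For Hspd1 and Hspa9 no difference between the drugs was called, and the values by hour, from 1 array a side, were as follows. Hspd1 on X54793_at with butyrate minus aspirin was 0.06, −0.08, −0.57, −1.05 and −1.16 after 2, 6, 12, 16 and 24 h, and on rc_AA858640_s_at it was 0.22, −0.13, −1.38, −1.38 and −1.36. Hspa9 on S78556_at gave −0.24, 0.18, −0.77, −1.03 and −1.28. Averaged over all times these were −0.56 (limma, adjusted p = 0.0943), −0.81 (0.0897) and −0.63 (0.0896), which did not pass the threshold. The difference in slope was −0.52 ± 0.12 on rc_AA858640_s_at (limma, adjusted p = 0.0747) and was not called for either gene.

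Other chaperone genes gave mixed results. Taken in 8 lists, they made up 80 genes, of which 31 had tested probe sets, 46 in number. With butyrate against untreated cells 1 was called higher and 2 lower (6.52%, beside 11.7% of all tested), and with aspirin 0 (beside 0.147%). The gene called higher was Hspa13, a microsomal HSP70 relative, which read 528, 803, 698, 701 and 695 with butyrate, against 125 and 130.1 in untreated cells. All butyrate arrays were far above the untreated ones (2.41 ± 0.31, limma, adjusted p = 0.000642). Those called lower were 2 of 3 probe sets of Fkbp4, an HSP90 co-chaperone of the immunophilin class, at −1.33 ± 0.36 (limma, adjusted p = 0.0319) and −1.27 ± 0.35 (0.0348), with −0.97 ± 0.37 (0.102) on the third.

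List by list, the 10 probe sets listed as HSP90 co-chaperones were all negative with butyrate (median −0.61, 2 called lower). They were of Stip1, Fkbp4, Cdc37, Ppid, Chordc1 and St13, with no HSP90 gene among them. The 7 of other HSP70 and HSP110 chaperones had 5 above 0 (median 0.43, 1 called higher). J-domain and nucleotide exchange co-chaperones had 7 of 10 above 0 and 0 called, small heat shock proteins other than Hspb1 had 1 of 4 above 0 and 0 called, and cytosolic chaperonin and prefoldin had 1 of 3 above 0 and 0 called. Other mitochondrial chaperones, import factors and proteases had 2 of 6 above 0 with 0 called (median −0.28). The remaining heat shock factor targets had 0 of 3 above 0 and 0 called. Hsf1, the heat shock factor itself, changed by −0.48, −0.42 and 0.15 on its 3 probe sets (limma, adjusted p = 0.293, 0.308 and 0.877). The stress-inducible Hspa1a was at the floor on all 12 arrays.

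Butyrate against aspirin called 4 of the 46 higher and 7 lower (23.9%), a share near the 25.2% of all tested probe sets. Higher were Hspa13 (1.44), 1 of 2 probe sets of Hspa4 (1.41, with 0.43 on the uncalled one), Dnajb5 (1.14) and 1 of 3 of Dnajc5 (0.42, with 0.30 and 0.11). Lower were 1 of 3 probe sets of Fkbp4 (−1.15, with −1.03 and −0.95 on the uncalled ones), Chordc1 (−0.76), 1 of 2 of St13 (−0.62, with 0.34 on the uncalled one) and Cdc37 (−0.33 on both its probe sets), which work with HSP90 or HSP70, the chaperonin subunit Cct3 (−0.64) and 1 of 2 probe sets of the haem-degrading enzyme Hmox1 (−1.31, with −0.66 on the uncalled one). With butyrate the slopes of Fkbp4 (−0.42) and Dnajb1 (−0.28) were called falling, and that of Hspa2 rising, on a probe set at the floor on 8 of 12 arrays, the 2 h butyrate array among them, so the floor sets the size of its slope. The other probe sets of Fkbp4 (−0.40 and −0.37) and Dnajb1 (−0.36) were not called. In all, 6.52% of the 46 slopes were called with butyrate, beside 8.99% of all tested probe sets. With aspirin 0 of the 46 slopes were called, beside 1.65% of all tested.

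The probe sets whose log2 values ran most like those of Hspb1 (rc_AA998683_g_at) over the 12 arrays were those of Grina (Pearson r = 0.98), Prnp (0.97) and Gchfr (0.96). For Hspd1 (X54793_at) they were Mcm6 (0.98) and Smc4 (0.96), with Dut (0.97) between them, and the Hspa9 probe set S78556_at ranked 4 at 0.96. Hspe1 (rc_AI170613_g_at) ranked 40 at 0.91. Hspd1 and Hspb1 ran opposite to each other, at r = −0.85 between these probe sets. The r values describe 12 arrays that share treatments and times and carry no test.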

How the data were processed

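Array intensity is the unit of the deposited value table, with 1 column per array. It was read so from the deposited values, which are linear and below 0 for 21.6 to 25.6% of each array. How the authors removed background and scaled the values is not given in the sources used here. Trimmed means of the arrays were 1001.5 to 1002.1, and no further normalization was done. Low values were raised to a floor of 91 (the absolute 10th percentile) and log2 was taken. A filter at a mean log2 of 6.54 (30th percentile) left 6118 of 8740 probe sets, the 59 controls aside. Gene names come from the array annotation (7006 probe sets with 1 gene, 308 with several, 1426 with none).

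Fits used limma 3.58.1 in R 4.3.3 (lmFit, eBayes with a variance trend, Benjamini-Hochberg adjustment, threshold 0.05): group means on 12 arrays (9 residual degrees of freedom), butyrate against aspirin on 10 arrays with hours as a block (4), and slopes over log2 hours (6). Different probe sets of a gene were kept apart, and no probe set's level was set against another's. Every member probe set is named, the other chaperones named are those called in a list, with Hsf1 and Hspa1a added after their values were seen, and the 3 probe sets most like Hspb1 and Hspd1 are given. The members, lists and motifs were chosen with earlier results of these data known. Alternatives were other floors, no filter, quantile normalization, median centring, no variance trend, time as a factor, the 2 and 24 h arrays alone, no time block, linear hours, and leaving out each array. Promoter windows were matched by symbol with Python 3.11.15.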

Additional observations from a re-analysis of the deposited data

Results flagged for a closer look

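Among the 5 arrays of a treatment, 4 values stood apart from the rest by Dixon's criterion (0.71 for 5 samples), which chance alone meets in about 1 of 20 groups. The criterion was applied to each of the 20 probe sets with each drug, so some such values are due by chance. The 5 arrays are 5 different hours and not replicates, so a value can stand apart as part of a time course. All 4 were low values with aspirin: Hspa9 S75280_s_at at 6 h (1612), Hsp90ab1 rc_AI236795_s_at at 6 h (14892), and both Hspe1 probe sets at 24 h (8091 on rc_AI170613_at and 11487 on rc_AI170613_g_at). At 6 h the other 2 probe sets of Hspa9 read 5272 and 275 and were within the range of their group. At 24 h the fall of Hspe1 was shared by both its probe sets. Their names differ only by a suffix and they correlated at r = 0.95 over the 12 arrays, so they are hardly separate evidence.

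The effects of the drugs differed by a test of the difference on 7 of the 20 probe sets, against 25.2% of all tested probe sets. Hspb1 differed by 1.95, 1.57 and 1.09 (butyrate minus aspirin, log2), Hspe1 by −0.26 and −0.61, Dnaja1 U53922_at by −0.91 and Hsp90ab1 rc_AI007820_s_at by −0.24. Hsp90ab1 rc_AI007820_s_at and Hspe1 rc_AI170613_at were each called in 3 of 17 other settings, and the sign of that Hsp90ab1 difference turned with quantile normalization. Dnaja1 U53922_at was called in 10 of the 17 and Hspe1 rc_AI170613_g_at in 9. The slopes over time differed on Hsp90ab1 rc_AI008074_s_at, by −0.62 per unit of log2 hours, against 1.73% of all tested probe sets.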

How the results depend on the processing

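Against untreated cells, the 7 members called with butyrate became 3 with a floor 2 times as high, 2 without the filter, 4 with quantile normalization and 0 with the 2 and 24 h arrays alone, and 0 to 13 when 1 array was left out. Over all tested probe sets 716 calls became 322, 355, 707 and 0 in the same processing settings, in that order, and 353 to 1187 with 1 treated array left out. For butyrate against aspirin, 7 became 4 with that floor, 4 without the filter and 15 with median centring, and 2 to 8 with 1 array left out. Over all tested probe sets 1540 became 683, 779 and 2085, and 246 to 1666 with 1 array left out. The 7 called slopes with butyrate became 4 with that floor, 4 without the filter and 0 to 6 with 1 array left out. Over all tested probe sets 550 became 318 and 329, and 75 to 556 with 1 array left out. The called slope with aspirin gave 0 to 1, and the 1 called slope difference 0 to 2, with 2 for the lower floor and 2 for linear hours. Over all tested probe sets 7 to 258 slopes with aspirin and 3 to 138 slope differences were called. Aspirin against untreated cells gave 0 in each setting. Median centring moved the median of all tested probe sets to −0.19 for butyrate against untreated cells (0.00 before) and to −0.21 for butyrate against aspirin (0.10 before). Signs turned for Hsp90ab1 in butyrate against aspirin with quantile normalization (0.0066 on rc_AI007820_s_at, 0.074 on rc_AI236795_s_at, 0.054 on S45392_at) and for the aspirin slope of Hspa9 S75280_s_at without the 24 h aspirin array (−0.022, in a range up to 0.70 over the left-out arrays). The cause was not tested. Hspb1 rc_AA998683_g_at and rc_AI176658_s_at stayed called against aspirin in 17 of 17 settings, and M86389cds_s_at and rc_AA998683_g_at against untreated cells in 18 of 20. Of 120 values, 77 were called in no setting, 22 of which changed sign in some. Replicate numbers stand for hours, and hours entered as the block in the fits named so above.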
